A study of Mus musculus with 12 samples.

Results

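The genes described here are 44 interferon-stimulated genes, read in RNA sequencing of whole mouse skin. The rule that chose them names genes and uses no measured value, although the list was drawn up with results of these data known. It takes the rows of the count table whose Ensembl identifiers carry the member symbols (Ddx58 is also called Rigi), and all 44 were found among the 52636 genes listed. From textbook knowledge of their regulation, 31 were placed in a type I class and 13 in an interferon-gamma class. The study injected LL37, the active peptide of human cathelicidin, into back skin to produce rosacea-like inflammation, and asked what rapamycin (RAPA), which blocks the growth kinase mTORC1, changes in it. All mice were female BALB/c mice, and the study's methods give an age of 8 weeks for this model, 40 μl of LL37 at 320 μM or control vehicle per intradermal injection over 2 days, and RAPA at 4 mg/kg per day by intraperitoneal injection. The 4 groups were vehicle-injected mice (control), vehicle-injected mice given RAPA (control+RAPA), LL37-injected mice (LL37) and LL37-injected mice given RAPA (LL37+RAPA). Each had 3 independent biological samples and 1 library per sample. In the study's description of this sequencing, the control and LL37 mice were given vehicle rather than RAPA.

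Interferons are cytokines, which in skin come from keratinocytes, plasmacytoid dendritic cells, macrophages and lymphocytes. Cells release those of type I on sensing viral or misplaced nucleic acid. Type I interferons signal through the receptor IFNAR to the transcription factor complex ISGF3, which holds STAT2 and IRF9 and binds the interferon-stimulated response element (ISRE) in the promoters of antiviral genes. Interferon-gamma, the type II interferon of T and NK cells, signals through IFNGR to the gamma-activated site (GAS) in promoters and induces IRF1, guanylate-binding proteins, immunity-related GTPases and the machinery of antigen presentation. The classes overlap, since many of these genes answer to both interferons.

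Promoter sequence, which the choice of members did not use, shows what the classes share. The table of RefSeq promoters on GRCm38.p6, each 250 bases before and 50 after an annotated start, held 38 promoters for 33 members. The letters GAAANNGAAA of the ISRE, searched on both strands, were found in 13 of 25 type I promoters and in 6 of 13 interferon-gamma promoters, against 3.44% of all 32851 promoters. The letters TTCNNNGAA of the GAS, which read the same on the other strand, were in 4 of 25 type I promoters and 5 of 13 interferon-gamma promoters, against 8.30% of all. A match describes these letters only. The 5 promoters below, 150 bases upstream of the start and written 5′ to 3′ on the gene's own strand, were chosen to show a cluster of ISREs (Isg15), spaced ISREs (Ifit1), a single ISRE (Rsad2), ISRE and GAS together (Gbp7) and GAS alone (Irf1). Capitals mark the motif matches.
Isg15 chr4:156200819-156200968 (- strand): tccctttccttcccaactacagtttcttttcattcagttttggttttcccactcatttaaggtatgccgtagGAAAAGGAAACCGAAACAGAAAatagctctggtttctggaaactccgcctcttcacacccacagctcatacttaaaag
Ifit1 chr19:34640739-34640888 (+ strand): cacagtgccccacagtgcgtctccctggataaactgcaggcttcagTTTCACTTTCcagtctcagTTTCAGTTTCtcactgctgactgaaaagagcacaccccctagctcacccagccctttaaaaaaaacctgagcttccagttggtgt
Rsad2 chr12:26456453-26456602 (- strand): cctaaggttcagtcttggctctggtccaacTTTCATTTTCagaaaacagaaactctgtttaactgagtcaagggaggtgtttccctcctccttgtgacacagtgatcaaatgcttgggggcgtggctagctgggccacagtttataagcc
Gbp7 chr3:142530186-142530335 (+ strand): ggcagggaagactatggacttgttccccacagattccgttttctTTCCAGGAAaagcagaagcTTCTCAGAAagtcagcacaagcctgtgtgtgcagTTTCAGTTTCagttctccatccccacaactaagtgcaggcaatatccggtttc
Irf1 chr11:53769864-53770013 (+ strand): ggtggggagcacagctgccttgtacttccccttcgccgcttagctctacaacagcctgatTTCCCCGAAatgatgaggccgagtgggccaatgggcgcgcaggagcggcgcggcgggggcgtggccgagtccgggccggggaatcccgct
In Isg15, 3 overlapping ISRE matches begin at positions -78, -72 and -66, counted from the base before the start as -1. Ifit1 holds ISRE matches at -104 and -85 and Rsad2 at -120. Gbp7 holds GAS matches at -106 and -87 and an ISRE match at -53, and Irf1 holds a GAS match at -90.

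The libraries held from 15734559 to 23271784 counted reads, and 17993 genes passed the filter on low counts and were tested together in 12 libraries with edgeR's quasi-likelihood test. Levels are given in CPM, read counts scaled to a common library size after normalization for library composition (TMM). SE is the standard error of a log2 fold change, derived as the absolute change divided by the square root of edgeR's F statistic. In each group n is 3. A DEG had a Benjamini-Hochberg adjusted p-value under 0.05 over all tested genes and an absolute log2 fold change above 1, which is the limit the study used. Of the 44 members, 43 passed the filter. The 1 that did not, Oas1a, was listed at 0 counts in all 12 libraries. Of its 100-base windows, 40.9% occur also in its neighbour Oas1g, which was listed at 0 as well. How reads shared between genes were counted, and whether either gene was counted at all, is not given in the sources used here. The zeros of Oas1a therefore give no limit on its level. Ifit3 and Ifit3b share 31.7% and 27.4% of their windows with each other, so the split of reads between them is uncertain. Smaller shares held for Herc6 (10.3%), Gbp7 (10.01%, with Gm43802 and Gbp3), Rtp4 (9.28%), Igtp (5.16%), Trim30a (4.41%, with Trim30d) and Ifit1 (3.29%, with Ifit1bl2). No other member exceeded the 1.13% of Mx2. Whether counting used the strand is not given in the sources used here, and Tap1 and Psmb9 overlap on opposite strands, as do Irf7 and Phrf1.

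**Figure D1:**
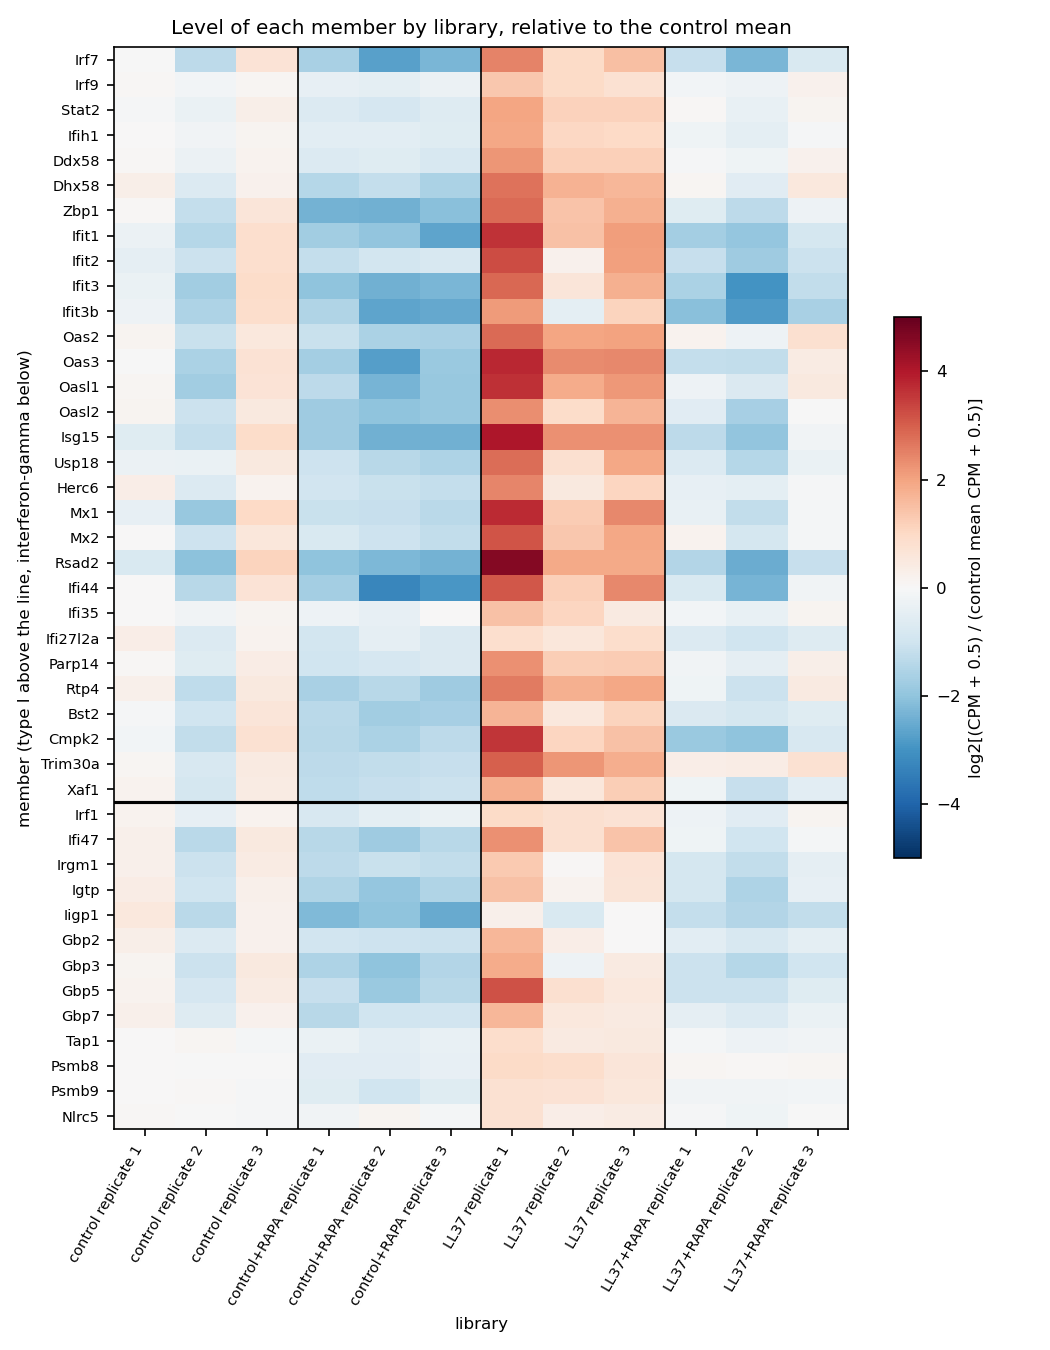
Each row is 1 of the 43 tested members and each column 1 of 12 libraries, and the colour is the log2 ratio of its CPM to the mean CPM of the control group, with 0.5 added to both. The 3 LL37 columns are red in most rows, more so above the line that parts the 30 type I members from the 13 interferon-gamma members, and control replicate 2 and the control+RAPA columns are mostly blue.

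In LL37 skin, 28 of 30 tested type I members and 3 of 13 interferon-gamma members were DEGs higher than in control skin, and 0 were lower, where 8.73% of all tested genes were DEGs in that direction. By the adjusted p-value alone, 29 and 8 members were higher, against 21.0% of all tested genes. The median log2 fold change was 2.15 over the type I members and 0.85 over the interferon-gamma members, beside -0.01 over all tested genes. The individual values ran from 0.78 to 3.45 in the first class and from -0.10 to 2.11 in the second. All 3 LL37 libraries lay above all 3 control libraries for 26 type I and 8 interferon-gamma members, an order that 23.8% of all tested genes had. These calls rest in part on LL37 replicate 1, the highest LL37 library for 42 of 43 members. Without it, 17 members were DEGs, all of them type I, and the medians were 1.42 and 0.46. The 14 calls lost were those of Bst2, Cmpk2, Gbp5, Gbp7, Herc6, Ifi35, Ifi44, Ifi47, Ifit2, Ifit3, Irf7, Irf9, Rsad2 and Xaf1. Without control replicate 2, the lowest control library for 40 of 43 members, 22 type I members and 1 interferon-gamma member were DEGs. In these bulk samples, more cells of a type and more RNA per cell cannot be told apart.

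The transcription factors of the pathway were higher in LL37 skin. Stat2 (ENSMUSG00000040033, chromosome 10 from 128270559 to 128292849 on the + strand, here and below on GRCm38), a part of ISGF3, stood at 47.3, 39.1 and 60.2 CPM in control skin and 192, 110 and 109 in LL37 skin. The groups do not overlap, and LL37 replicate 1 stood highest. Its log2 fold change was 1.49 ± 0.23 (SE, edgeR adjusted p = 0.000428). Irf9 (ENSMUSG00000002325, chromosome 14 from 55603571 to 55610030 on the + strand), the DNA-binding part of ISGF3, which overlaps Rnf31 on the same strand, stood at 55.1, 48.9 and 56.7 CPM in control and 136, 105 and 90.6 in LL37 skin, which gives a log2 fold change of 1.04 ± 0.15 (SE, edgeR adjusted p = 0.000318). Its change lies close to the limit for a DEG, and its libraries did not overlap either. Irf7, which drives the interferon-alpha genes, stood at 86, 34.5 and 139 CPM in control and 480, 168 and 246 in LL37 skin. The control libraries of Irf7 spread widely, and the log2 fold change was 1.78 ± 0.54 (SE, edgeR adjusted p = 0.0203). Irf1 (ENSMUSG00000018899, chromosome 11 from 53770014 to 53778374 on the + strand), the factor of the interferon-gamma class, stood at 30.03, 19.5 and 29.8 CPM in control and 51.7, 46.9 and 44.4 in LL37 skin. It rose with an adjusted p under the threshold but by less than the fold change limit, with a log2 fold change of 0.85 ± 0.20 (SE, edgeR adjusted p = 0.00534).

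Sensors of foreign nucleic acid rose together, 4 of 4 as DEGs. Ifih1 (ENSMUSG00000026896, chromosome 2 from 62595798 to 62646255 on the - strand), which encodes the RNA sensor MDA5, stood at 21.03, 18.3 and 22.9 CPM in control skin and 80.7, 42.96 and 41.4 in LL37 skin. Its LL37 libraries all lay above the control libraries, with a log2 fold change of 1.41 ± 0.23 (SE, edgeR adjusted p = 0.000566). Ddx58 (RIG-I) followed with 1.62 (adjusted p = 0.000436), Dhx58 (LGP2, which tunes both RNA sensors) with 2.19 (adjusted p = 0.000812) and Zbp1, a sensor of left-handed nucleic acid, with 2.19 (adjusted p = 0.0029).

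The IFIT proteins, which hold back the translation of foreign RNA, had 3 DEGs of 4. Ifit1 stood at 4.15, 1.59 and 9.75 CPM in control and 68.8, 15.1 and 23.4 in LL37 skin, or a log2 fold change of 2.79 ± 0.67 (SE, edgeR adjusted p = 0.00581). Ifit2 stood at 8.09, 5.08 and 20.3 CPM in control and 110, 13.2 and 48.2 in LL37 skin, and here LL37 replicate 2 lay below control replicate 3. Its log2 fold change was 2.36 ± 0.64 (SE, edgeR adjusted p = 0.0119). That of Ifit3 was 2.09 (adjusted p = 0.0296), and Ifit3b did not pass at 1.34 (adjusted p = 0.153). Ifit1 was the only 1 of the 4 whose LL37 and control libraries did not overlap.

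All 4 tested members of the OAS family, whose products make or relate to the oligoadenylates that switch on the nuclease RNase L, were DEGs. Their log2 fold changes were 3.07 (adjusted p = 0.003) for Oas3, 2.84 (adjusted p = 0.00378) for Oasl1, 2.34 (adjusted p = 0.000858) for Oas2 and 1.78 (adjusted p = 0.00952) for Oasl2. Oas2 stood at 24.4, 9.95 and 32.03 CPM in control and 159, 87.9 and 89.7 in LL37 skin, so that its lowest LL37 library was well above its highest control library.

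The ISG15 system, a ubiquitin-like modifier with its ligase and protease, had 3 DEGs of 3. Isg15, the modifier itself, stood at 7.12, 4.61 and 21.97 CPM in control and 193, 56.3 and 55.96 in LL37 skin. LL37 replicates 2 and 3 stood at almost the same level and replicate 1 above them, and the log2 fold change was 3.18 ± 0.68 (SE, edgeR adjusted p = 0.00308). Usp18, which removes ISG15 and restrains IFNAR, had a log2 fold change of 2.11 (adjusted p = 0.00316), and Herc6, an ISG15 ligase of the mouse, a value of 1.64 (adjusted p = 0.0112). Per kilobase of exon, mean Isg15 went from 14.9 CPM in control to 135 in LL37 skin. That set it second among the 44 in LL37 skin, under Ifi27l2a (329) and above Bst2 (121) and Irf7 (78.9).

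Of 12 other antiviral effectors, 11 were DEGs. Trim30a (ENSMUSG00000030921, chromosome 7 from 104409025 to 104465193 on the - strand), a TRIM protein that restrains inflammatory signalling, had the smallest p-value of the type I class. It stood at 13.5, 7.18 and 17.4 CPM in control and 103, 61.2 and 46.4 in LL37 skin, or a log2 fold change of 2.47 ± 0.33 (SE, edgeR adjusted p = 0.000159). Rsad2, the antiviral enzyme viperin, had the largest log2 fold change of the 43 with all libraries, 3.45 ± 0.88 (SE, edgeR adjusted p = 0.0082). It stood at 7.66, 2.77 and 29.1 CPM in control and 331, 50.98 and 49.8 in LL37 skin, so that LL37 replicate 1 alone held most of the group's sum. Without that library its log2 fold change was 1.93 (adjusted p = 0.0515), not a DEG and below those of Oas3 (2.44) and Isg15 (2.32), among others. Cmpk2, a mitochondrial nucleotide kinase whose gene lies next to Rsad2 on chromosome 12, had 2.53 (adjusted p = 0.00972). The dynamin-like GTPases Mx1 and Mx2 had log2 fold changes of 2.88 (adjusted p = 0.00699) and 2.47 (adjusted p = 0.00266), and Bst2, tetherin, which holds budding virus at the membrane, a value of 1.19 (adjusted p = 0.0172). The other effectors ran from 1.07 (adjusted p = 0.0028) for Ifi35 to 2.48 (adjusted p = 0.0133) for Ifi44, with 2.19 (adjusted p = 0.00256) for Rtp4, 1.32 (adjusted p = 0.0135) for Xaf1, which promotes cell death, and 1.70 (adjusted p = 0.0014) for Parp14, an ADP-ribosyltransferase. Ifi27l2a (ENSMUSG00000079017, chromosome 12 from 103442167 to 103443680 on the - strand), the most abundant member per kilobase, stood at 110, 54.3 and 101 CPM in control and 160, 133 and 165 in LL37 skin. It passed by p-value but not by fold, at 0.78 ± 0.23 (SE, edgeR adjusted p = 0.0156).

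In the interferon-gamma class, the 4 genes of antigen processing rose by adjusted p-value, each by less than the limit on the fold change. Psmb8 (ENSMUSG00000024338, chromosome 17 from 34197721 to 34201454 on the + strand), a catalytic subunit of the immunoproteasome, stood at 67.9, 65.9 and 65.9 CPM in control and 131, 122 and 102 in LL37 skin. Its log2 fold change of 0.83 ± 0.10 (SE, edgeR adjusted p = 6.1e-05) carried the smallest p-value of all 43 members. Psmb9, the neighbouring subunit, stood at 46.9, 48.9 and 44.6 and 79.7, 78.5 and 69.5 CPM, with 0.70 ± 0.11 (SE, edgeR adjusted p = 0.000436). Tap1 (ENSMUSG00000037321, chromosome 17 from 34187553 to 34197225 on the + strand), the peptide transporter, stood at 149, 156 and 136 and 273, 198 and 205 CPM, with 0.62 ± 0.12 (SE, edgeR adjusted p = 0.00193). Nlrc5, the transactivator of MHC class I genes, stood at 121, 116 and 111 and 195, 145 and 155 CPM, with 0.50 ± 0.12 (SE, edgeR adjusted p = 0.00573). The libraries of control and LL37 skin did not overlap for any of these 4, and none reached the fold change limit.

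The large GTPases of this class, which attack the vacuoles of intracellular pathogens, varied more. Of 4 guanylate-binding proteins, Gbp5 (2.11, adjusted p = 0.0184) and Gbp7 (1.03, adjusted p = 0.0242) were DEGs, and Gbp2 (0.86, adjusted p = 0.0844) and Gbp3 (0.98, adjusted p = 0.134) were not. Gbp5 stood at 7.17, 3.28 and 8.48 CPM in control and 61.1, 11.4 and 9.37 in LL37 skin, so that replicate 1 was far above the others and replicates 2 and 3 only just above the highest control library. Of 4 immunity-related GTPases, only Ifi47 was a DEG, at 1.70 ± 0.47 (SE, edgeR adjusted p = 0.0133), while Igtp and Irgm1 had log2 fold changes of 0.89 (adjusted p = 0.101) and 0.77 (adjusted p = 0.118). Iigp1 (ENSMUSG00000054072, chromosome 18 from 60376027 to 60392634 on the + strand) was the only member with a value below 0. It stood at 27.9, 7.23 and 22.1 CPM in control and 22.9, 11.2 and 19.3 in LL37 skin, which overlap, with a log2 fold change of -0.10 ± 0.39 (SE, edgeR adjusted p = 0.862). Its sign turned when control replicate 1 or 3 or LL37 replicate 2 was left out. Genes named in any paragraph beyond the pathway lists and Stat2, Irf9, Irf7, Irf1, Ifih1, Ifit2, Trim30a, Ifi27l2a, Ifi35, Psmb8, Psmb9, Tap1, Nlrc5 and Iigp1 were chosen after their values were seen. In LL37 against LL37+RAPA skin the call of Iigp1 was lost on leaving out any 1 of 9 libraries.

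**Figure D2:**
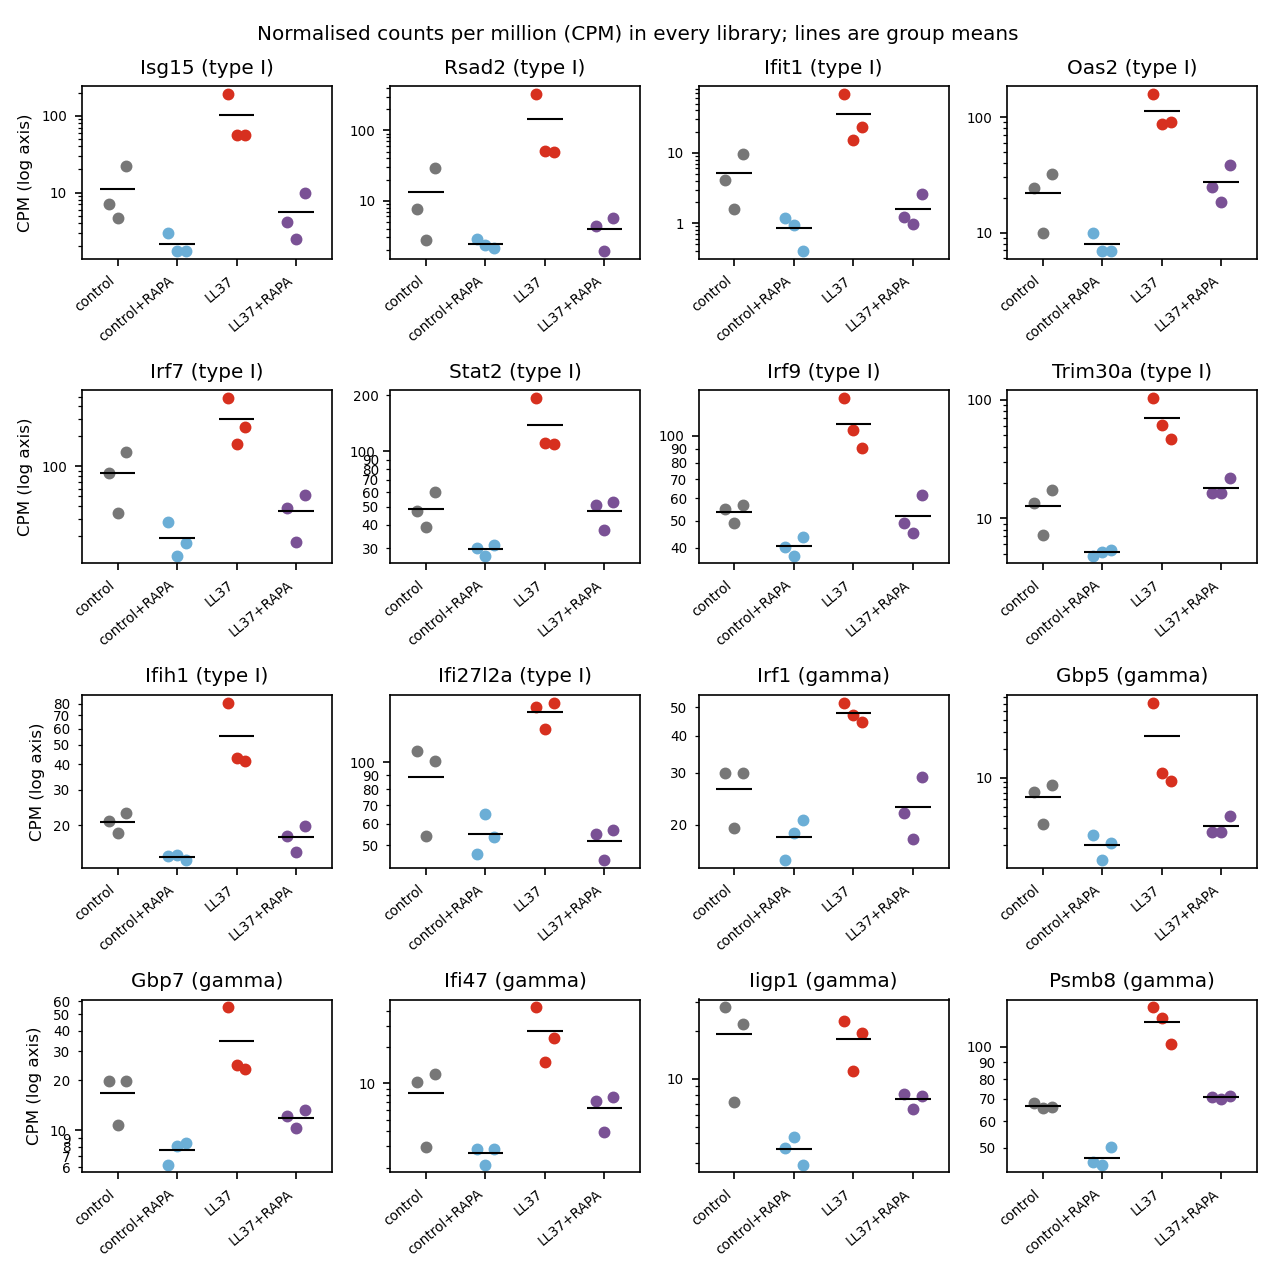
Each panel is 1 member, with CPM in every library on a log axis and a line at each group mean, for control (grey), control+RAPA (light blue), LL37 (red) and LL37+RAPA (purple). LL37 libraries stand above LL37+RAPA libraries in every panel, whereas in Iigp1 the LL37 and control libraries overlap.

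Given RAPA, LL37 skin held less of every tested member. In LL37 against LL37+RAPA, 30 of 30 type I members and 9 of 13 interferon-gamma members were DEGs higher without RAPA, where 4.33% of all tested genes were. By adjusted p-value alone all 30 and all 13 passed, against 11.8% of all tested genes. The libraries did not overlap for any of the 43 members, an order that 17.6% of all tested genes had. The median log2 fold change was 2.55 over the type I members, from 1.08 to 5.17, and 1.49 over the interferon-gamma members, from 0.59 to 3.12, beside 0.00 over all tested genes. The same LL37 libraries enter this comparison and the one with control, so the comparisons are not independent. Without LL37 replicate 1, 28 type I and 3 interferon-gamma members were DEGs, and all 30 and 8 passed by adjusted p-value.

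Rsad2 again had the largest value. It stood at 4.41, 1.92 and 5.72 CPM in LL37+RAPA skin, each below the lowest LL37 library, a log2 fold change of 5.17 ± 0.97 (SE, edgeR adjusted p = 0.0045). The IFIT family had log2 fold changes of 4.47 (adjusted p = 0.00275) for Ifit1, 4.03 (adjusted p = 0.00483) for Ifit3, 3.88 (adjusted p = 0.00754) for Ifit3b and 3.77 (adjusted p = 0.00422) for Ifit2. Isg15 stood at 4.18, 2.497 and 9.96 CPM in LL37+RAPA skin, with 4.20 ± 0.72 (SE, edgeR adjusted p = 0.00316), and Cmpk2 had 4.12 (adjusted p = 0.00352). Within the OAS family the values ran from 2.04 (Oas2) to 3.56 (Oas3).

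The smallest p-values of the type I class were those of Ifih1, Irf9 and Ifi27l2a. Ifih1 stood at 17.7, 14.7 and 19.7 CPM in LL37+RAPA skin, with 1.66 ± 0.23 (SE, edgeR adjusted p = 0.00156). Irf9 stood at 49.2, 45.2 and 61.5 CPM, with 1.08 ± 0.15 (SE, edgeR adjusted p = 0.00166), and Ifi27l2a at 55.2, 44.3 and 56.7 CPM, with 1.55 ± 0.23 (SE, edgeR adjusted p = 0.00182). Each LL37+RAPA library lay below the lowest LL37 library for these 3 genes. Among the other transcription factors, Stat2 stood at 51.2, 37.5 and 53.3 CPM and Irf7 at 38.5, 17.5 and 51.3 CPM. Their log2 fold changes were 1.54 (adjusted p = 0.00187) and 3.06 (adjusted p = 0.00442), and that of Irf1, at 21.97, 17.9 and 28.9 CPM, was 1.05 (adjusted p = 0.0048). Of the other sensors, Zbp1 had the largest value, 2.89 (adjusted p = 0.00281).

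In the interferon-gamma class, Psmb9, Psmb8 and Tap1 had the smallest p-values but stayed under the fold change limit. Psmb9 stood at 41.04, 41.7 and 42.6 CPM in LL37+RAPA skin, with 0.86 ± 0.11 (SE, edgeR adjusted p = 0.00129). Psmb8 stood at 70.7, 69.8 and 71.4 CPM, an almost identical level in the 3 mice, with 0.74 ± 0.10 (SE, edgeR adjusted p = 0.00137). Tap1 stood at 138, 123 and 131 CPM, with 0.79 ± 0.12 (SE, edgeR adjusted p = 0.0021), and Nlrc5 had 0.59 (adjusted p = 0.00661). All 4 guanylate-binding proteins and all 4 immunity-related GTPases were DEGs. Gbp5 had 3.12 (adjusted p = 0.00759), Gbp3 2.21 (adjusted p = 0.0118) and Ifi47 2.11 (adjusted p = 0.0103), and the smallest value was that of Iigp1, 1.25 (adjusted p = 0.0429), which stood at 8.02, 6.55 and 7.89 CPM in LL37+RAPA skin.

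**Figure D3:**
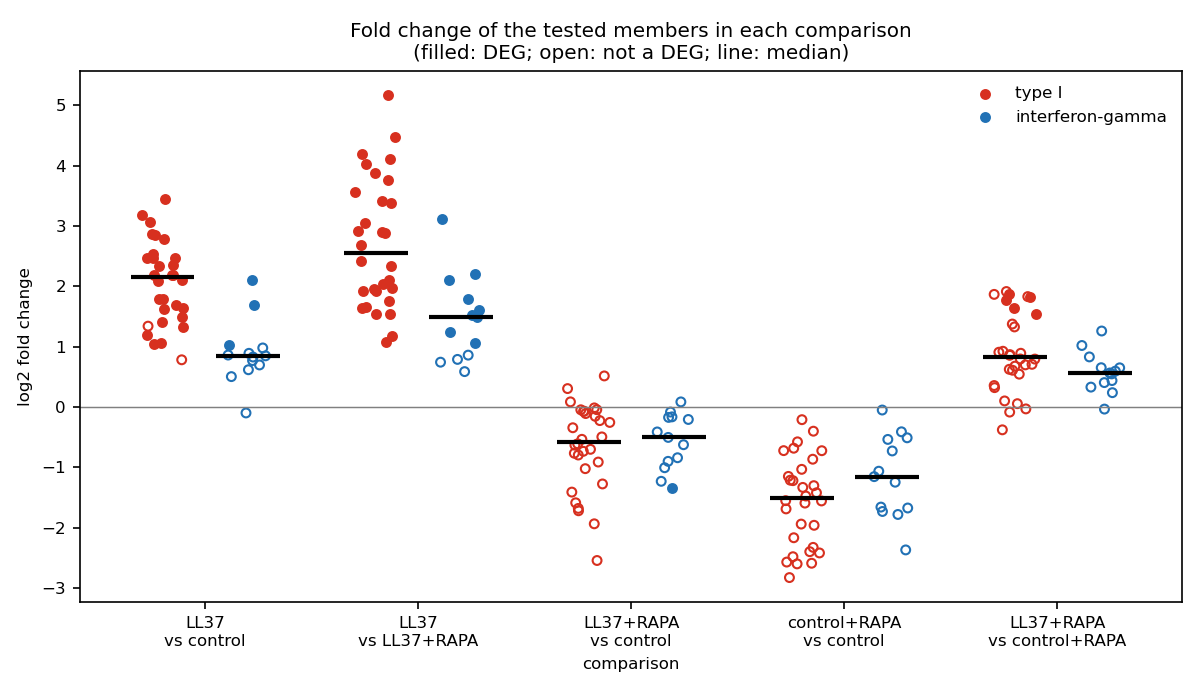
Log2 fold change of the 30 type I (red) and 13 interferon-gamma (blue) members tested, in 5 comparisons. Filled points are DEGs, open points are not, and the line is the median. For LL37 vs control the medians are 2.15 and 0.85, for LL37 vs LL37+RAPA 2.55 and 1.49, and they are -0.57 and -0.50 in LL37+RAPA vs control, -1.51 and -1.15 in control+RAPA vs control, and 0.83 and 0.57 in LL37+RAPA vs control+RAPA.

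Set against control skin, LL37+RAPA skin showed 0 members as higher DEGs, where 2.15% of all tested genes were, and 1 as a lower DEG, where 4.35% were. That member was Iigp1, with a log2 fold change of -1.35 ± 0.40 (SE, edgeR adjusted p = 0.0459), and this call was lost on leaving out any 1 of 8 libraries (control replicates 1 and 3 and all replicates of control+RAPA and LL37+RAPA), while 2 members were called without LL37 replicate 1 or 2. Ifi27l2a passed by adjusted p-value at -0.77 (adjusted p = 0.0439), below the fold change limit. At an unadjusted p under 0.05, 6 type I and 3 interferon-gamma members were lower and 0 were higher, where 14.9% of all tested genes were lower. DESeq2 called 2 lower DEGs among the members and 4.31% of its tested genes. The medians were -0.57 for the type I class and -0.50 for the interferon-gamma class, beside 0.00 over all tested genes, and 39 of 43 values lay below 0. Single libraries moved these values, with a type I median of -0.21 without control replicate 3 and of -0.27 without LL37+RAPA replicate 2, where 11 type I members and 1 interferon-gamma member lay above 0 in either case. Without control replicate 2 the medians were -0.95 and -0.83, and with library size as the only scaling 9 type I and 2 interferon-gamma members lay above 0. The IFIT family lay lowest, from -2.54 (Ifit3b, adjusted p = 0.0596) to -1.41 (Ifit2), and Trim30a highest at 0.52 (adjusted p = 0.336). Without control replicate 2, 5 members were lower DEGs, namely Iigp1, Irgm1, Bst2, Ifi27l2a and Ifit3b.

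RAPA was also given to control mice, which are compared here with the same control libraries that enter the comparisons with LL37 and LL37+RAPA skin. All 43 tested members had a log2 fold change below 0 in control+RAPA against control skin, where 51.0% of all tested genes did, and none was a DEG by edgeR (0.0% of all tested genes were). At an unadjusted p under 0.05, 26 type I and 12 interferon-gamma members were lower and 0 higher, where 4.57% of all tested genes were lower. The medians were -1.51 and -1.15, beside -0.01 over all tested genes. The libraries did not overlap for 21 type I and 11 interferon-gamma members, an order that 7.42% of all tested genes had. DESeq2 called 6 type I and 3 interferon-gamma members as lower DEGs, where it called 0.285% of its tested genes, namely Zbp1, Bst2, Dhx58, Trim30a, Rtp4, Oas2, Iigp1, Igtp and Gbp3.

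The smallest adjusted p-values were those of Psmb9, Iigp1, Psmb8 and Zbp1. Psmb9 stood at 30.7, 23.5 and 30.6 CPM in control+RAPA skin, each below its control libraries, with a log2 fold change of -0.73 ± 0.11 (SE, edgeR adjusted p = 0.15). Iigp1 stood at 3.74, 4.35 and 2.94 CPM, with -2.37 ± 0.43 (SE, edgeR adjusted p = 0.189), and Psmb8 at 45.4, 44.5 and 50.3 CPM, with -0.51 ± 0.10 (SE, edgeR adjusted p = 0.21). Zbp1 stood at 11.2, 4.46 and 16.7 CPM in control and 1.68, 1.63 and 2.13 in control+RAPA skin, with -2.57 ± 0.53 (SE, edgeR adjusted p = 0.281). Control replicate 2 was the lowest control library for all 30 type I members. For Isg15 it stood at 4.61 CPM against 2.93, 1.73 and 1.73 in control+RAPA skin, with -2.40 (adjusted p = 0.463). Irf7 stood at 27.8, 12.8 and 17.2 CPM, with -2.17 (adjusted p = 0.386), and Stat2 at 30.1, 27.4 and 31.3 CPM, with -0.72 (adjusted p = 0.463). Nlrc5 (102, 126 and 109 CPM) had the value nearest 0, -0.05 (adjusted p = 0.938). Without control replicate 2, only Iigp1 was a DEG, and the medians were -1.84 and -1.42. Without control replicate 3, the highest control library for 27 of 30 type I members, the medians were -1.11 and -0.99, with 0 DEGs.

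Whether RAPA acts differently in LL37-injected and in control skin was read from the interaction, the log2 fold change of LL37+RAPA against LL37 less that of control+RAPA against control. By edgeR 0 members were DEGs, where 0.65% of all tested genes were in the lower direction. At an unadjusted p under 0.05, 9 type I and 2 interferon-gamma members had a lower value, where 9.81% of all tested genes did, and 0 had a higher one. The values lay below 0 for 42 of 43 members, with medians of -0.91 and -0.38 beside 0.01 over all tested genes. The 5 smallest p-values were those of Ifih1 (-1.09 ± 0.32 SE, edgeR adjusted p = 0.0819), Nlrc5 (-0.54 ± 0.17, adjusted p = 0.0974), Irf9 (-0.68 ± 0.22, adjusted p = 0.0981), Ifi35 (-0.96 ± 0.32, adjusted p = 0.108) and Ifit2 (-2.74 ± 0.93, adjusted p = 0.116). DESeq2 called 1 member, Ifih1, where it called 1.71% of its tested genes lower. Calls appeared on leaving out LL37 replicate 3 (3 members) or LL37 replicate 2 (1 member, Ifit2), and without LL37 replicate 1 the medians were -0.50 and 0.0015, with 3 type I and 7 interferon-gamma members above 0. Without control replicate 2 they were -0.64 and -0.13, with 2 and 3 members above 0, and without LL37 replicate 2 the interferon-gamma median was -0.57. Iigp1 alone had a value above 0, 1.12 (adjusted p = 0.28).

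Ifi35, a leucine zipper protein, and Ifit2 show the range among these 5. Ifi35 stood at 28.7, 25.4 and 31.8 CPM in control, 24.1, 21.3 and 28.95 in control+RAPA, 79.6, 60.9 and 39.7 in LL37 and 26.4, 21.98 and 31.5 in LL37+RAPA skin. Only the LL37 libraries stand apart. Ifit2 stood at 4.61, 5.63 and 6.102 CPM in control+RAPA and 4.697, 2.91 and 5.004 in LL37+RAPA skin, which overlap, while its LL37 libraries differed by 8.36-fold between replicates 1 and 2.

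A comparison added after the data were seen sets LL37+RAPA against control+RAPA skin, so that both groups had RAPA. Here 5 type I members and 0 interferon-gamma members were higher DEGs, where 4.07% of all tested genes were. The 5 were Trim30a (1.82, adjusted p = 0.00318), Oas2 (1.78, adjusted p = 0.0117), Dhx58 (1.64, adjusted p = 0.0151), Zbp1 (1.87, adjusted p = 0.0296) and Rtp4 (1.54, adjusted p = 0.0453). Psmb8 (0.60, adjusted p = 0.00138) and Psmb9 (0.57, adjusted p = 0.00408) passed by adjusted p-value alone. Trim30a stood at 4.83, 5.19 and 5.41 CPM in control+RAPA and 16.2, 16.5 and 21.8 in LL37+RAPA skin, which do not overlap. Ifit2 (-0.38), Ifi27l2a (-0.08), Cmpk2 (-0.03) and Nlrc5 (-0.03) had values just below 0. The medians of 0.83 and 0.57 compare with -0.01 over all tested genes. The number of DEGs among the members was 2 without any 1 control+RAPA library or without LL37+RAPA replicate 3, 3 without LL37+RAPA replicate 1 and 8 without control replicate 2, and 10 were called when these groups were fitted alone.

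**Figure D4:**
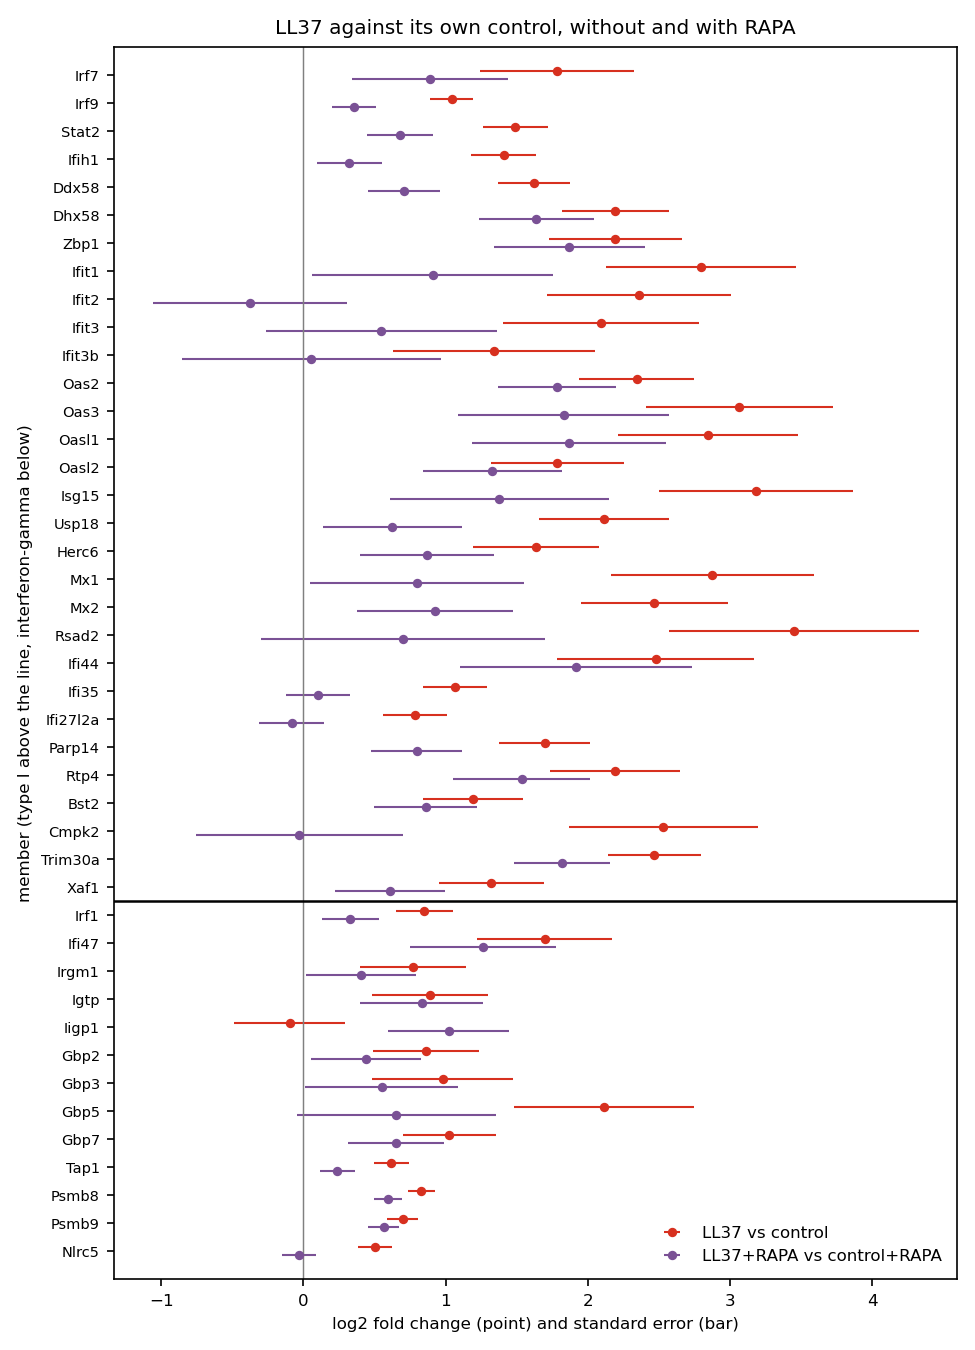
Log2 fold change with its standard error for each of the 43 tested members, for LL37 vs control (red) and LL37+RAPA vs control+RAPA (purple), which share no library. The purple point lies left of the red point for 42 of 43 members, the exception being Iigp1, and 0 of the 43 differences passed the adjusted test of the interaction by edgeR.

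Class medians were also taken within each library. The median log2 ratio to the control mean, over the members of a class in 1 library, was 2.76, 1.17 and 1.73 for type I and 1.29, 0.43 and 0.54 for interferon-gamma in LL37 replicates 1, 2 and 3. Within each LL37 library the type I median thus lay above that of the other class. In control skin the type I medians were 0.01, -1.07 and 0.55, against 0.18, -0.69 and 0.21, so that replicate 2 was lowest in both classes. In control+RAPA skin they were -1.30, -1.39 and -1.55 against -1.16, -1.05 and -1.06, and in LL37+RAPA skin -0.49, -1.11 and -0.10 against -0.46, -0.78 and -0.34. No test was made of the difference between classes.

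Spread between mice also differed among members. The highest LL37 library exceeded the lowest by a median of 2.67-fold over the type I members, from 1.24-fold (Ifi27l2a) to 8.36-fold (Ifit2). Over the interferon-gamma members the median was 2.36-fold, from 1.15-fold (Psmb9) to 6.52-fold (Gbp5). LL37 replicate 2 was the lowest LL37 library for 29 members and replicate 3 for 14, although replicate 3 is the one that stands apart on the first principal component, at 64.4 against 133 and 129.

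**Figure D5:**
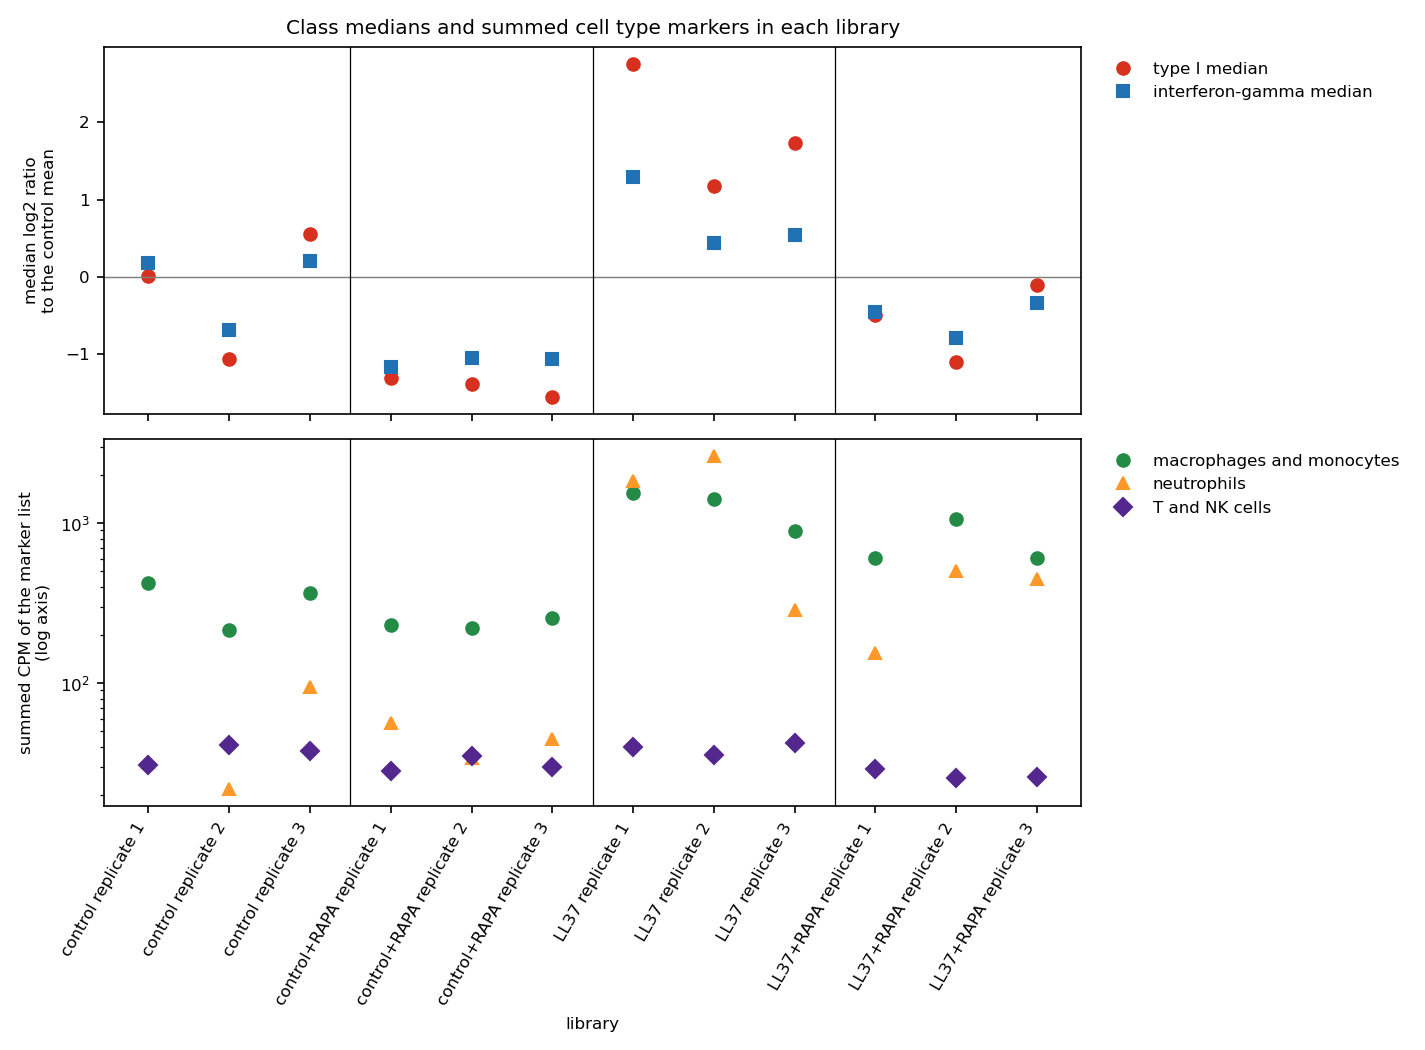
Upper panel, median log2 ratio to the control mean of the type I (red circles) and interferon-gamma (blue squares) members in each of 12 libraries. Lower panel, summed CPM of marker lists for macrophages and monocytes, neutrophils, and T and NK cells on a log axis. The class medians and the macrophage sum are highest in LL37 replicate 1, and the neutrophil sum is highest in LL37 replicate 2.

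Markers of immune cells also differed between groups. The summed level of 9 macrophage and monocyte markers ran from 214 to 424 CPM in control, 220 to 256 in control+RAPA, 898 to 1550 in LL37 and 601 to 1061 in LL37+RAPA skin, and 7 of the 9 were higher DEGs in LL37 than in control skin. Of those, Adgre1 (F4/80) had log2 fold changes of 1.54 (adjusted p = 0.0014) against control and 1.42 (adjusted p = 0.00634) against LL37+RAPA. The summed level of 9 neutrophil markers ran from 21.8 to 94.1 CPM in control, 34.0 to 56.2 in control+RAPA, 287 to 2641 in LL37 and 154 to 503 in LL37+RAPA skin, with all 7 tested markers as higher DEGs against control. Against LL37+RAPA skin, 2 of 9 macrophage and 3 of 7 neutrophil markers were higher DEGs. Of all tested genes, 8.73% were higher DEGs against control and 4.33% against LL37+RAPA. LL37 replicate 3 had the lowest sums of both lists in its group, at 898 and 287 CPM, but not the lowest type I median. The macrophage sum was highest in LL37 replicate 1, at 1550 CPM, as were the class medians, and among control libraries both sums were lowest in replicate 2, at 214 and 21.8 CPM, as were the class medians. The 12 markers of T and NK cells, the sources of interferon-gamma, summed to between 30.9 and 40.9 CPM in control and 35.7 and 42.2 in LL37 skin. Of 9 tested, 1 was a higher DEG (Cd4), where 8.73% of all tested genes were. In LL37+RAPA skin they summed to between 25.5 and 29.1 CPM, and 3 of 9 were DEGs higher in LL37 than in LL37+RAPA skin. In control+RAPA skin they summed to between 28.4 and 34.9 CPM. Against control skin, 8 of 9 then had a log2 fold change below 0, with a median of -0.81 and 0 DEGs. At an unadjusted p under 0.05, 4 of the 9 were lower, where 4.57% of all tested genes were. This was not particular to T and NK cells. Of the macrophage and monocyte markers, 8 of 9 lay below 0, with a median of -0.64, 3 lower at that p-value and 0 DEGs. Of the neutrophil markers, 5 of 7 lay below 0, with a median of -0.36 and 0 lower at that p-value. Siglech, a defining marker of plasmacytoid dendritic cells, stood at 1.24, 0.564 and 1.21 CPM in control and 0.599, 0.735 and 1.32 in LL37 skin, which overlap. Of the 4 markers of these cells only Cox6a2, which skeletal muscle expresses too, was a DEG, lower in LL37 skin (-6.92, adjusted p = 6.4e-06). Whether these cells carry the change of the members was not tested. The tissue label holds by its keratinocyte markers, which summed to at least 20090 CPM in every library, whereas skeletal muscle and adipocyte markers fell in LL37 skin. The muscle markers summed to between 42779 and 61453 CPM in control and 44610.5 and 78664 in control+RAPA skin. These sums lay above the keratinocyte sums of those groups, which reached at most 28186 CPM. In LL37 skin the muscle sums were 158 to 1074 CPM and in LL37+RAPA skin 3574 to 7611. Of the muscle markers 19 of 19 tested were lower DEGs against control and against LL37+RAPA, with median log2 fold changes of -7.07 and -3.66. Of all 17993 tested genes, 1946 and 1044 were lower DEGs in these comparisons. Of the adipocyte markers 6 of 6 were lower DEGs in both, with medians of -1.99 and -2.36, and the part of either in the change of the members was not tested. Leaving the 20 listed muscle genes out of the fit moved no count of DEGs among the members by over 1.5 times. Other genes that muscle expresses stayed in, so this check covers scaling only and does not test the fall of muscle markers.

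The interferons themselves were barely read. Of 21 ligand genes listed, 14 were at 0 in every library, none passed the filter, and the largest count was 5 (Ifnk in control replicate 3). Ifnb1, chosen after its counts were seen, had 1, 1 and 3 counts in the LL37 libraries and 0 in the other 9. These lie at or under the floor of 3 counts, between 0.123 and 0.184 CPM, and a difference was not detectable at this depth. Ifng reached at most 3 counts, in control replicate 3 and LL37 replicate 3.

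The genes between interferon and its targets were 16 receptors and signalling genes. Of these, 7 were higher DEGs in LL37 than in control skin and 3 against LL37+RAPA, with 0 lower in either. Of all tested genes, 8.73% and 4.33% were higher DEGs in these comparisons. How the calls of this and the following lists depend on LL37 replicate 1 is not reported here. Il10rb, a subunit of the receptor for interferon-lambda, had a log2 fold change of 1.13 (adjusted p = 0.000265) against control, and Ptpn6, a phosphatase that dampens JAK signalling, 1.17 (adjusted p = 0.000284). Of 17 genes that sense nucleic acid upstream of interferon, 6 were higher DEGs against control and 6 against LL37+RAPA, with 0 lower DEGs. Cgas, which senses DNA in the cytosol, had log2 fold changes of 2.41 (adjusted p = 0.000211) against control and 2.08 (adjusted p = 0.00221) against LL37+RAPA. Sting1, its adaptor, had 2.22 (adjusted p = 0.000166) and 1.14 (adjusted p = 0.0152), and Myd88, the adaptor of most Toll-like receptors, 1.65 (adjusted p = 0.00037) and 1.36 (adjusted p = 0.00397).

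Other interferon-induced genes, outside the 44, gave 24 higher and 1 lower DEG of 48 tested in LL37 against control skin. Against LL37+RAPA they gave 30 higher and 0 lower, and the medians were 1.02 and 1.24. Higher DEGs made up 8.73% and 4.33% of all tested genes in these comparisons. Lgals9 (1.70, adjusted p = 6.06e-05), a galectin, Ifitm3 (1.77, adjusted p = 7.69e-05), which blocks viral entry, and Parp9 (1.40, adjusted p = 0.000314) had the smallest p-values of that list. In control+RAPA against control skin the list had 0 DEGs and a median of -0.83. At an unadjusted p under 0.05, 33 genes were lower, where 4.57% of all tested genes were, and 0 higher. Of 17 other genes of MHC class I and the immunoproteasome, 0 were DEGs and 8 and 12 passed by adjusted p-value in LL37 skin against control and LL37+RAPA, 0 of them lower. By adjusted p-value alone, 21.0% and 11.8% of all tested genes were higher in these comparisons. Pdia3 (0.88, adjusted p = 0.000251), Calr (0.74, adjusted p = 0.00101) and Psmb10 (0.77, adjusted p = 0.00427) led the 17 genes.

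Guanylate-binding proteins lie in clusters on chromosomes 3 and 5, and their values were set side by side after they were seen. The members Gbp2, Gbp3, Gbp5 and Gbp7 lie on chromosome 3, as does Gbp2b (0.90, adjusted p = 0.134 in LL37 against control skin). On chromosome 5, Gbp4 (-0.66, adjusted p = 0.0839), Gbp6 (-0.06, adjusted p = 0.949), Gbp8 (-0.11, adjusted p = 0.788) and Gbp9 (0.29, adjusted p = 0.317) did not pass, and Gbp10 was a lower DEG, -2.62 (adjusted p = 0.0241). The values on chromosome 3 ran from 0.86 to 2.11, of which Gbp5 and Gbp7 passed, and the difference between the clusters was not tested. Of the chemokine genes that interferon induces, Cxcl10 was a higher DEG (2.70, adjusted p = 0.0314) and Cxcl9, a target mainly of interferon-gamma, did not pass (-0.97, adjusted p = 0.107).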

How the data were processed

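RNA sequencing of skin was analysed in 12 libraries of 4 groups. The authors deposited raw read counts per gene, one column per library, without normalization, and all 12 columns were mapped by title (0 columns of no sample). The study's methods name 100-base paired-end reads, HTSeq 0.6.0 and DESeq 1.10.1, whereas the submitters' processing notes name HISAT2 2.0.5, StringTie 1.3.3b, featureCounts 1.5.0-p3, DESeq2 1.16.1 and the build mm10. Which of these made the counts could not be settled.

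Names and coordinates come from GENCODE M21 (GRCm38). In R 4.3.3, edgeR 4.0.16 (TMM, filterByExpr, quasi-likelihood F-test) was fitted to all 12 libraries, with Benjamini-Hochberg adjustment over 17993 genes. The fit was tested on simulated data. Alternatives were DESeq2 1.42.0, other scalings, filters and groups, a replicate block and each library left out. The floor of 3 counts covers counting error only.

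The members, classes and lists were chosen with earlier results of these data known. Values in every library were given for the 3 members of smallest p in each direction and class in the comparisons of LL37 skin with control and with LL37+RAPA skin, the 5 of smallest interaction p and the 4 transcription factors. Fold changes were given for up to 3 genes of each pathway list, of which 1 is not reported here.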

Additional observations from a re-analysis of the deposited data

How the results depend on the processing

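With each library left out in turn, the number of DEGs among the members ranged from 17 to 35 in LL37 vs control (31 with all libraries), from 31 to 39 in LL37 vs LL37+RAPA (39), from 0 to 5 in LL37+RAPA vs control (1), from 0 to 1 in control+RAPA vs control (0), from 0 to 3 in the interaction (0) and from 2 to 8 in LL37+RAPA vs control+RAPA (5). The medians of the type I and interferon-gamma classes ranged from 1.42 to 2.48 and 0.46 to 1.06 in LL37 vs control, and from 2.04 to 2.86 and 1.012 to 1.698 in LL37 vs LL37+RAPA, from -0.95 to -0.21 and -0.83 to -0.36 in LL37+RAPA vs control, and from -1.13 to -0.50 and -0.57 to 0.0015 in the interaction. In control+RAPA vs control they ranged from -1.84 to -1.11 and from -1.42 to -0.99. In LL37+RAPA vs control the number was 0 with library size only, 2 with no filter, 2 with DESeq2, 2 with no limit on the fold change and 3 with a replicate block. DESeq2 called 9 members in control+RAPA vs control and 1 in the interaction. In LL37+RAPA vs control+RAPA, 10 were called with the compared groups only and 9 with the replicate block. The log2 fold change of Iigp1 in LL37 vs control ranged from -0.50 to 0.28 with single libraries left out, and turned to 0.28, 0.0045 and 0.18 without control replicate 1, control replicate 3 or LL37 replicate 2. The other alternatives kept both main counts within 1.5 times, from 22 (compared groups only) to 37 (no limit on the fold change) in LL37 vs control and from 38 to 43 in LL37 vs LL37+RAPA. Library size only moved the median log2 fold change of all genes to 0.13 in LL37+RAPA vs control, to 0.11 in the interaction and to 0.18 in LL37+RAPA vs control+RAPA. The cause of these moves was not tested.

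Replicate numbers showed no evident pairing of the samples, and the sample titles do not say whether same-numbered samples were handled together. Over 18 pairs of the same number in different groups, the correlation of deviations from the group means ran from -0.19 to 0.26, and 4 exceeded 0.1. With the replicate block, 32 members were DEGs in LL37 vs control, 39 in LL37 vs LL37+RAPA, 0 in control+RAPA vs control and 0 in the interaction. Depth limits the interferon ligands, which lie at or near the floor.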
